A study of Mus musculus with 19 samples.

Results

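The 10 genes described here carry the vascular endothelial growth factor (VEGF) and angiopoietin signals: the ligands Vegfa, Vegfb, Vegfc, Angpt1 and Angpt2 and the receptors Kdr, Flt1, Flt4, Tek and Tie1. They were taken by symbol from the deposited table, which holds 23521 genes with a number in every library. All 10 were among the 14043 genes tested. In the mm10 coordinates of the table, the VEGF genes lie at chr17:46016993-46032377 (Vegfa), chr19:6982472-6987651 (Vegfb) and chr8:54077532-54186454 (Vegfc), and their receptors at chr5:75933270-75978428 (Kdr), chr5:147562196-147725988 (Flt1) and chr11:49609679-49652739 (Flt4). Angpt1 lies at chr15:42424725-42676795 and Angpt2 at chr8:18690263-18741562, and the Tie receptor genes both lie on chromosome 4, Tek at chr4:94739300-94874939 and Tie1 at chr4:118471191-118489849. VEGF ligands bind receptor tyrosine kinases on endothelial cells and drive vessel growth and permeability. Angiopoietins act on the Tek receptor (Tie2), for which Angpt1 is an activating ligand and Angpt2 a context-dependent one that can block it, while Tie1 is a related receptor with no high-affinity angiopoietin ligand of its own that modulates Tek. In muscle, fibres and stromal cells are known sources of ligand, and the capillary endothelium bears the receptors.

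The 19 libraries hold poly(A) RNA from cells or tissue of the hindlimb muscles of C57BL/6J mice. Every group came from animals injected at 8 weeks of age with 2.5 mg of tamoxifen a day on 5 days and rested for 10 days, and the labels used here name no transgene, Cre driver or untreated control. LinPos (4 libraries) was sorted for lineage markers, and its cells are of endothelial and blood origin according to the labels. LinNeg (4 libraries) was the lineage-negative remainder, LinNegSca1Neg (4 libraries) its part without the surface protein Sca1, and LinNegSca1Pos (3 libraries) its part with Sca1, which the labels call mesenchymal progenitors. Whole (4 libraries) is titled a mononuclear suspension, while its column in the table reads whole muscle. Neither pooling nor the number of animals behind a library is given, so the p-values speak of the spread among these libraries alone, and that spread may be technical.

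Levels are in FPKM, fragment counts divided by transcript length and by the library's mapped total, which allows genes to be compared per length. Group values are means ± SD (n = 4, or n = 3 for LinNegSca1Pos). Differences are log2 differences of FPKM + 1 between group means and come out too small for genes of low level. A gene is called where limma's p-value, adjusted over all 14043 genes of a comparison, is under 0.05. Depth is unknown. The relative FPKM worth of a single fragment was estimated from 2023 genes that lay above the lowest listed value in few libraries. Such values may hold more than 1 fragment, so the estimate is rough. It differed up to 4.65-fold between libraries and was largest in LinNegSca1Pos replicate 3, so that library's low values are taken as the least precise.

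The summed FPKM of 13 endothelial markers was 761 to 1979 in LinPos. It was 174.2 to 196.4 in Whole and, among lineage-negative cells, 159.8 to 259.1 before the Sca1 sort, 126.6 to 157.1 in LinNegSca1Neg and 217.3 to 362.1 in LinNegSca1Pos. A few widely shared genes such as Ramp2 and Eng carry the sums of the lineage-negative groups, where the median marker stood at 1.97% to 4.62% of its LinPos mean and the defining markers Pecam1 and Cdh5 at 0.928% to 4.35%. LinPos also held leukocyte markers (6 genes, summed FPKM 832.1 to 1654) and macrophage markers (7 genes, 972 to 1444), so it mixed endothelial and blood-derived cells. LinPos replicate 3 stood apart, with the lowest endothelial sum, 761 against 1654 or more in the other libraries, and the highest leukocyte sum. LinPos replicate 4 had the highest sum of 6 platelet and megakaryocyte markers, 2597 FPKM against 239.1 to 746.5 in the others. Only 2 of the 6 reached 1 FPKM in that library, so those genes carry its sum. Of 5 tested in LinPos against LinNeg, 2 were higher (Pf4 and Ppbp), 1 was lower and 2 were not called. Mesenchymal progenitor markers (8 genes) summed to 11050 to 15700 in LinNegSca1Pos and 1819 to 3214 in LinNegSca1Neg. In Whole, 9 myofibre genes summed to 73740 to 92930 FPKM, which does not match a suspension of mononuclear cells. The sum was 56.94 to 180.5 in LinPos and 55.83 to 268.7 in LinNegSca1Pos. It was uneven in LinNegSca1Neg, at 3544, 2805, 17130 and 20570 in replicates 1 to 4, and in LinNeg, at 1410, 1586, 9639 and 2917. In bulk samples fewer cells of a type and less RNA per cell cannot be told apart.

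The promoters of 4 receptors are shown first because these genes split into different patterns below, with Kdr, Flt1 and Tie1 low in every lineage-negative group and Tek high in LinNeg and LinNegSca1Pos. The sequences are the 250 bases before the annotated start in the RefSeq promoter table for GRCm38.p6, 5′ to 3′ on the gene's strand. Capitals mark the words CGGAAG or AGGAAG on either strand, the core bound by ETS transcription factors, a family with many members in endothelium.
Tie1: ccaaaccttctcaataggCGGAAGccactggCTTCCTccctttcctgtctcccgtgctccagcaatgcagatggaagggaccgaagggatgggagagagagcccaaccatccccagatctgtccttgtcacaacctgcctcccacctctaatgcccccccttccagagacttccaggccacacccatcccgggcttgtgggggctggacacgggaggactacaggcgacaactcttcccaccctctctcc
Flt1: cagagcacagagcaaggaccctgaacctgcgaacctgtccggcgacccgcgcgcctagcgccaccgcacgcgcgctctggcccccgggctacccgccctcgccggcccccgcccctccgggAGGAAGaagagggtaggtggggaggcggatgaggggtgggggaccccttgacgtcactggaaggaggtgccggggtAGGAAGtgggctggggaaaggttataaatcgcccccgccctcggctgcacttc
Kdr: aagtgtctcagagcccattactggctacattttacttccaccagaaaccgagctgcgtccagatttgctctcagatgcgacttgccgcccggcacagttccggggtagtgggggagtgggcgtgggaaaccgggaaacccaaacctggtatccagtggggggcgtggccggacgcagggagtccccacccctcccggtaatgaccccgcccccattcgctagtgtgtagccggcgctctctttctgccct
Tek: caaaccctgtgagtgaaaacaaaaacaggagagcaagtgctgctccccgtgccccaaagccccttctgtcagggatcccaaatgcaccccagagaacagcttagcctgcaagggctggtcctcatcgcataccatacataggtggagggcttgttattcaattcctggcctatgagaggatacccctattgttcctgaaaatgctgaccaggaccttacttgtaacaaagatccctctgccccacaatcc
The windows lie at chr4:118489850-118490099 on the minus strand for Tie1, chr5:147726012-147726261 on the minus strand for Flt1, chr5:75978456-75978705 on the minus strand for Kdr and chr4:94739039-94739288 on the plus strand for Tek. Tie1 held ETS words with their first base at positions -232 and -219 from the start, and Flt1 at -129 and -53. Kdr and Tek held none. Of the members, 8 were matched to 9 windows, and Angpt1 and Angpt2 were not matched. An ETS word stood in 2 of these 9 windows and in 39.2% of all 32851 windows of that length, so the members' share was not above the background. The hypoxia response words ACGTG and GCGTG, searched on both strands, were found in 38.6% of all windows. They occurred 2 times each in the windows of Kdr, Vegfb and 1 of the 2 Vegfa starts, and 1 time in Flt1. The GATA words AGATAA and TGATAA stood in 16.6% of all windows and in the other Vegfa window. A match is a description of these letters and not evidence of binding.

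The VEGF ligands were not highest in the same group. Vegfa, the main ligand of Kdr and Flt1, and Vegfb, a ligand of Flt1, were highest in Whole and lowest in LinPos, while Vegfc, a ligand of Flt4 that is known for lymphatic growth, was highest in LinPos. Vegfa stood at 92.3, 81.7, 77.8 and 51.8 FPKM in Whole replicates 1 to 4 and at 6.46, 5.61, 10.33 and 5.26 in LinPos. In LinNeg it was 39.2, 46.2, 42.9 and 51.6 FPKM. Every LinNeg library was thus above every LinPos library, and the Whole libraries reached furthest.

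After division by Sca1, Vegfa was 46.2, 46.9 and 52.5 FPKM in LinNegSca1Pos and 16.8, 13.6, 30.8 and 26.8 in LinNegSca1Neg. The groups did not overlap, and the 2 higher LinNegSca1Neg values were those of replicates 3 and 4, the libraries with 17130 and 20570 FPKM of myofibre genes against 3544 and 2805 in replicates 1 and 2. Other groups did not show this order. In LinNeg, replicate 3 had the highest myofibre sum, 9639 FPKM, and a Vegfa level of 42.9, inside the range of the others. In Whole, replicate 4 had the highest myofibre sum, 92930 FPKM, and the lowest Vegfa level, 51.8. The part of myofibre RNA in the Vegfa level was not tested. The log2 difference between LinNegSca1Pos and LinNegSca1Neg was 1.18 (SE 0.26, limma adjusted p = 9.3e-04), and between LinPos and LinNeg -2.57 (SE 0.24, adjusted p = 3.7e-08). Against Whole, Vegfa was lower in all 4 fractions, but the call for LinNegSca1Pos (-0.61, adjusted p = 0.0479) had overlapping libraries. It was lost, with adjusted p of 0.0656 to 0.125, without Whole replicate 1, 2 or 3 or without LinNegSca1Pos replicate 1, 2 or 3, each in turn.

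Vegfb was 80.0 ± 17.1 FPKM in Whole, and its 4 fractions ranged from 3.64 FPKM in LinPos to 27.9 in LinNegSca1Neg. It was lower in LinPos (4.63 ± 1.49) than in LinNeg (12.2 ± 4.03), by -1.22 (SE 0.28, limma adjusted p = 0.00121). LinNegSca1Neg (18.98 ± 8.20) and LinNegSca1Pos (14.59 ± 4.196) overlapped, with a difference of -0.29 that was not called (adjusted p = 0.427). That difference depended on the libraries: it was 0.23 with LinNegSca1Neg replicates 1 and 2 only and -0.82 with replicates 3 and 4 only. Vegfb was 11.4 and 12.7 FPKM in replicates 1 and 2 and 27.9 and 23.9 in replicates 3 and 4, which had the higher myofibre sums, and in LinNeg it was highest, at 17.9 FPKM, in replicate 3, as the myofibre sum was. In Whole, however, replicate 4 had the highest myofibre sum, 92930 FPKM, and the lowest Vegfb level, 64.3. The part of myofibre RNA was not tested for Vegfb either.

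Vegfc was 17.0, 24.2, 11.4 and 23.4 FPKM in LinPos and 6.29, 9.06, 4.85 and 7.86 in LinNeg. LinPos was higher by 1.29 (SE 0.21, limma adjusted p = 4.9e-05). Its level was 8.48 ± 1.44 in LinNegSca1Pos, 6.02 ± 0.88 in LinNegSca1Neg and 1.198 ± 0.31 in Whole. The libraries of the Sca1 fractions did not overlap, but the difference of 0.43 did not pass (adjusted p = 0.124), and its call turned with scaling (adjusted p = 0.0474 after median-of-ratios scaling).

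**Figure D1:**
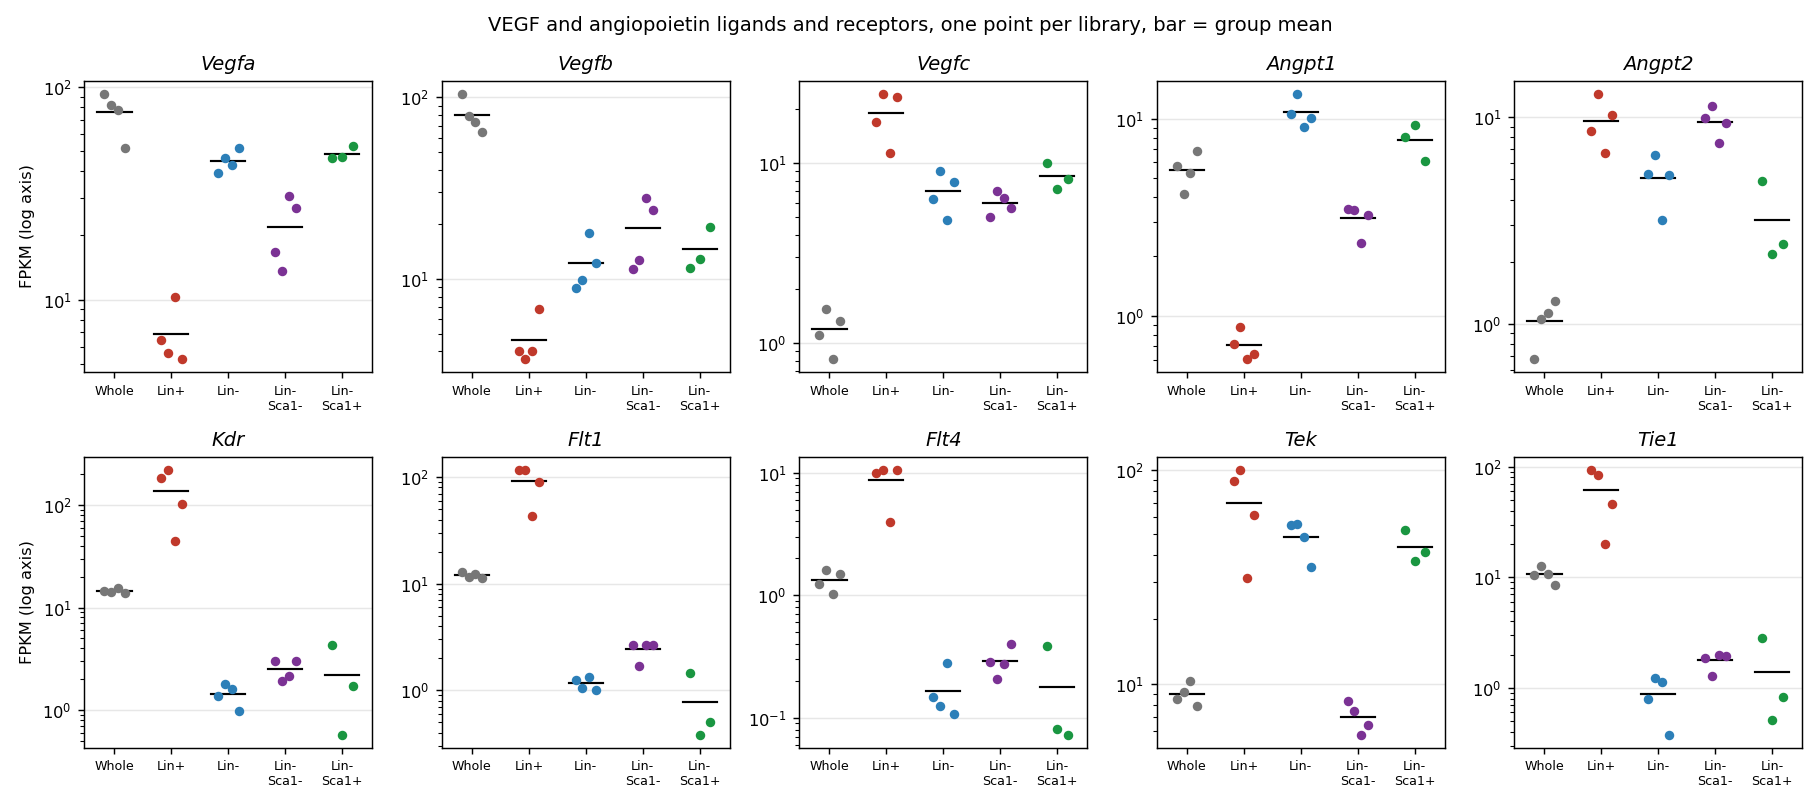
FPKM of each member in each library (log axis), 1 point per library and a bar at the group mean, for Whole, LinPos, LinNeg, LinNegSca1Neg and LinNegSca1Pos. Kdr, Flt1, Flt4 and Tie1 are highest in LinPos, Tek is also high in LinNeg and LinNegSca1Pos, and Vegfa and Vegfb are highest in Whole.

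The VEGF receptors marked LinPos. Kdr (VEGFR2), the main signalling receptor for Vegfa, was 182, 219, 44.4 and 102 FPKM in LinPos replicates 1 to 4, and 1.38, 1.79, 1.62 and 0.985 in LinNeg. Flt1 (VEGFR1), which binds Vegfa, Vegfb and placental growth factor and can act as a decoy, was 116, 117, 43.4 and 90.2 FPKM in LinPos and 1.25, 1.05, 1.34 and 1.00 in LinNeg. Flt4 (VEGFR3), the receptor for Vegfc and Vegfd, was lower throughout, at 9.98, 10.5, 3.97 and 10.5 FPKM in LinPos and 0.108 to 0.280 in LinNeg. No LinNeg library came near a LinPos library for any of them, and LinPos replicate 3, the library with the lowest endothelial marker sum, was the lowest of its group each time.

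LinPos exceeded LinNeg by 5.60 for Kdr (SE 0.39, limma adjusted p = 5.6e-10), by 5.32 for Flt1 (SE 0.25, adjusted p = 3.4e-12) and by 2.99 for Flt4 (SE 0.21, adjusted p = 5.9e-10). As a share of the LinPos mean, the LinNeg mean was 1.05% for Kdr, 1.27% for Flt1 and 1.89% for Flt4. The 13 endothelial markers had a median share of 1.97% in LinNeg. In Whole the shares were 10.6%, 13.1% and 15.3%, against a median of 12.9% for the endothelial markers.

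Within lineage-negative cells the receptors were low on both sides of Sca1. Flt1 was 2.68, 1.68, 2.68 and 2.67 FPKM in LinNegSca1Neg and 1.44, 0.384 and 0.507 in LinNegSca1Pos, a called difference of -0.98 (SE 0.27, limma adjusted p = 0.00495). It was no longer called with a pseudocount of 5 (adjusted p = 0.167) or after quantile normalization (adjusted p = 0.111). Kdr was 3.01, 1.92, 2.17 and 3.00 FPKM in LinNegSca1Neg and 4.35, 0.580 and 1.72 in LinNegSca1Pos. The Kdr groups overlapped and the difference of -0.30 was not called (adjusted p = 0.571), nor was that of Flt4 (-0.14, adjusted p = 0.615), and both took the other sign after quantile normalization. The highest LinNegSca1Pos value of each receptor was that of replicate 1, which also had the highest endothelial (362.1 FPKM), leukocyte (18.4) and macrophage (41.7) marker sums of its group. The part of these cells in the receptor values was not tested.

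The angiopoietins lay in different fractions. Angpt1 was 10.6, 13.3, 9.02 and 10.09 FPKM in LinNeg and 0.718, 0.873, 0.606 and 0.644 in LinPos. Angpt2 was 8.54, 12.9, 6.69 and 10.2 FPKM in LinPos and 5.32, 6.60, 3.20 and 5.24 in LinNeg. Angpt1 was thus lower in LinPos and Angpt2 higher, with no overlap for either gene. The log2 differences were -2.77 (SE 0.16, limma adjusted p = 5.7e-11) and 0.80 (SE 0.23, adjusted p = 0.0063).

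Sca1 divided the angiopoietins the other way round. Angpt1 was 8.05, 9.28 and 6.07 FPKM in LinNegSca1Pos and 3.48, 3.46, 2.33 and 3.26 in LinNegSca1Neg, higher by 1.08 (SE 0.18, limma adjusted p = 4.7e-05). Angpt2 was 4.93, 2.19 and 2.43 FPKM in LinNegSca1Pos and 9.90, 11.3, 7.47 and 9.35 in LinNegSca1Neg, a difference of -1.38 (SE 0.24, adjusted p = 1.2e-04). Neither gene overlapped between the Sca1 fractions. The Angpt2 libraries of LinNegSca1Neg and LinPos overlapped (9.51 ± 1.59 and 9.59 ± 2.64 FPKM), with a difference of 0.01 (adjusted p = 0.975) that became -0.15 after median-of-ratios scaling. The LinNegSca1Neg fraction also held the highest sum of 9 pericyte and smooth muscle markers, 2267 to 3936 FPKM against 89.5 to 210.6 in LinNegSca1Pos. Other marker sums were higher there too, those of 5 tenocyte genes (2235 to 3699 against 167.8 to 550.4), 5 Schwann cell genes (1478 to 2544 against 8.23 to 107.6) and 6 satellite cell genes (518.9 to 708.1 against 13.8 to 15.97). The part of any of these cells in the Angpt2 level was not tested.

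The Tie receptors separated from each other. Tie1 was 93.4, 84.9, 20.1 and 45.8 FPKM in LinPos and 0.800, 1.22, 1.14 and 0.379 in LinNeg. Tek was 88.5, 99.9, 31.4 and 61.5 FPKM in LinPos and 55.0, 55.7, 48.5 and 35.2 in LinNeg. No LinNeg library came near a LinPos library for Tie1, while the Tek libraries of LinPos and LinNeg overlapped. Tie1 was higher in LinPos by 4.84 (SE 0.37, limma adjusted p = 2.1e-09), and Tek by 0.42 (SE 0.26, adjusted p = 0.201), which was not called. The Tek result depended on the libraries and their weights. Without LinPos replicate 3 the difference was 0.76 and passed (adjusted p = 0.00338), as it did with sample weights (0.84, adjusted p = 0.00109). It also passed with only replicates 1 and 2 of LinPos, LinNeg and LinNegSca1Neg (0.75, adjusted p = 0.00297).

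Among lineage-negative cells Tek followed Sca1. It was 52.1, 37.6 and 41.5 FPKM in LinNegSca1Pos and 8.27, 7.50, 5.80 and 6.39 in LinNegSca1Neg. The groups were far apart, by 2.48 (SE 0.28, limma adjusted p = 9.9e-07). Tie1 was 1.88, 1.28, 2.00 and 1.93 FPKM in LinNegSca1Neg and 2.82, 0.509 and 0.833 in LinNegSca1Pos. It overlapped between them (-0.33, adjusted p = 0.505), with the other sign after quantile normalization. LinNegSca1Pos and LinPos overlapped for Tek, with a difference of -0.56 (adjusted p = 0.0983) that passed without LinPos replicate 3 (-0.90, adjusted p = 0.00129).

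Set against LinPos, the Tek mean was 69.1% in LinNeg and 62.2% in LinNegSca1Pos, but 9.94% in LinNegSca1Neg and 12.7% in Whole. The corresponding shares of Tie1 were 1.45%, 2.27%, 2.90% and 17.4%. The endothelial markers showed how much of the LinPos endothelial profile the other fractions carried. Their median share was 1.97% in LinNeg, 3.35% in LinNegSca1Pos and 4.62% in LinNegSca1Neg. Pecam1, an adhesion molecule of endothelial junctions, stood at 1.73% and Cdh5, VE-cadherin, at 1.97% in LinNeg. A few markers were shared more widely: Ramp2, a subunit of the adrenomedullin receptor, stood at 84.6% in LinNeg and 127% in LinNegSca1Pos, Ecscr at 31.0% and 33.0%, and Eng, endoglin, at 15.5% and 38.8%. Tek was thus not alone in its high share in LinNeg, where it lay below Ramp2 and above the other 12 markers.

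**Figure D2:**
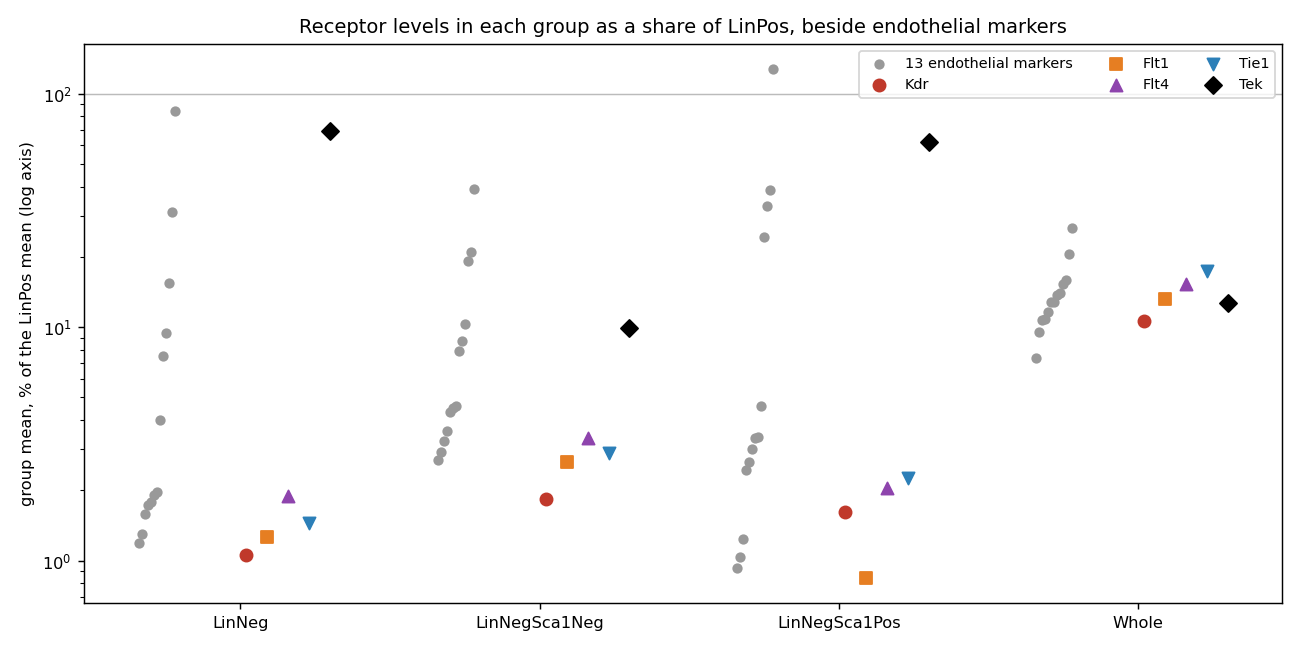
Mean FPKM of the 5 receptors and of 13 endothelial markers in each group as a percentage of the LinPos mean (log axis), 1 point per gene. Tek stands at 69.1% in LinNeg and 62.2% in LinNegSca1Pos, while Kdr, Flt1, Flt4 and Tie1 lie between 0.848% and 3.34% in the lineage-negative groups.

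Ratios within a library leave out its scaling, apart from the 0.1 FPKM added to both genes. The log2 ratio of Tek to Tie1 was 0.31 ± 0.31 in LinPos, 5.71 ± 0.44 in LinNeg and 1.93 ± 0.43 in LinNegSca1Neg. Both differences from LinPos, 5.40 for LinNeg and 1.62 for LinNegSca1Neg, gave a two-sided exact permutation p of 0.0286, the smallest that 4 against 4 libraries allow, and 0.0429 after Benjamini-Hochberg adjustment over 6 ratio tests. With libraries paired by replicate number, the exact permutation p was 0.125 for each, the smallest that 4 pairs allow. A paired test thus could not pass whatever the values, and both calls rest on the unpaired test alone. In these libraries Tek exceeded Tie1 more in both lineage-negative groups than in LinPos. In LinNegSca1Pos the ratio was 5.20 ± 0.93 and in Whole -0.23 ± 0.19.

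The log2 ratio of Angpt1 to Angpt2 was -3.55 ± 0.26 in LinPos, 1.10 ± 0.25 in LinNeg and -1.57 ± 0.10 in LinNegSca1Neg, and LinNeg and LinNegSca1Neg each differed from LinPos with an exact permutation p of 0.0286 (adjusted 0.0429). The paired exact permutation p was again 0.125 for each. Angpt1 was the higher of the pair in LinNeg, LinNegSca1Pos (1.34 ± 0.67) and Whole (2.31 ± 0.44), and Angpt2 in LinPos and LinNegSca1Neg. The log2 ratio of Vegfa to Vegfb was 0.56 ± 0.71 in LinPos and 1.92 ± 0.44 in LinNeg, which did not pass (exact permutation p = 0.0571, adjusted 0.0686), and 0.24 ± 0.21 in LinNegSca1Neg (exact p = 0.429).

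**Figure D3:**
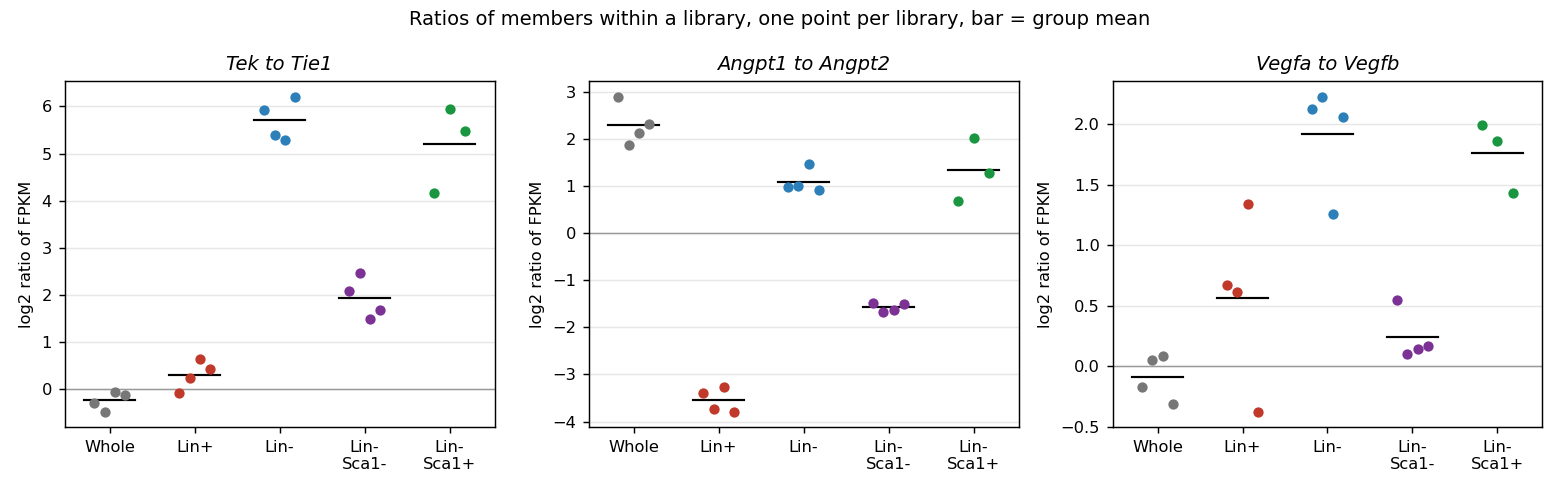
Log2 ratio of Tek to Tie1, of Angpt1 to Angpt2 and of Vegfa to Vegfb in each library, with a bar at the group mean. The ratio of Tek to Tie1 averages 0.31 in LinPos and 5.71 in LinNeg, and that of Angpt1 to Angpt2 is below 0 in LinPos and LinNegSca1Neg only.

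Counted over the members, 6 of 10 were higher and 3 lower in LinPos than in LinNeg, where 51.1% of all tested genes were called, 25.3% higher and 25.8% lower. Libraries did not overlap for 9 of the 10, and for 44.3% of all tested genes. For LinNegSca1Pos against LinNegSca1Neg, Vegfa, Angpt1 and Tek were higher, Angpt2 and Flt1 were lower and 5 members were not called, against 54.5% of all genes called, 22.4% higher and 32.1% lower. The share of 5 in 10 was thus near the background, as was that of the 6 members whose libraries did not overlap (54.7% of all genes). LinNegSca1Pos against LinPos gave 3 members higher (Vegfa, Vegfb, Angpt1), 6 lower and Tek not called, beside 59.9% of all genes (29.0% higher, 30.9% lower). Of the members, 9 did not overlap there (58.1% of all genes). LinNegSca1Neg against LinPos gave the same 3 higher, 6 lower (Vegfc and the 5 receptors) and Angpt2 not called, beside 54.5% of all genes (31.5% higher, 23.0% lower). Again 9 did not overlap (46.6% of all genes). LinPos is common to these last comparisons and to that with LinNeg.

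All receptors but Tek were called lower than LinPos in both Sca1 fractions, and Tek in LinNegSca1Neg. Kdr differed from LinPos by -5.37 in LinNegSca1Pos and -5.07 in LinNegSca1Neg, Flt1 by -5.65 and -4.67, Flt4 by -2.98 and -2.84, and Tie1 by -4.60 and -4.27. Tek differed by -0.56 and by -3.04 (SE 0.26, limma adjusted p = 1.4e-08). Among the ligands, Vegfa was above LinPos by 2.69 in LinNegSca1Pos and 1.51 in LinNegSca1Neg, Angpt1 by 2.35 and 1.27 and Vegfb by 1.47 and 1.76, while Vegfc differed by -1.03 and -1.46, all called.

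Against Whole, LinPos had 7 members higher and 3 lower, where 71.8% of all genes were called (48.8% higher, 22.9% lower), and the libraries of none of the 10 overlapped (69.0% of all genes did not). LinNeg had 4 higher and 6 lower, where 69.3% were called (47.5% higher, 21.8% lower), and again none of the 10 overlapped (67.6% did not). LinNegSca1Pos had 4 higher and 6 lower, where 65.6% were called (44.0% higher, 21.6% lower), with 8 not overlapping (70.7%). LinNegSca1Neg had 2 higher, 7 lower and Tek not called, where 68.2% were called (50.0% higher, 18.2% lower), with 9 not overlapping (66.2%). With so many genes called, these counts say little about the members. The median of all tested genes was itself 0.35 to 0.50 above Whole in these comparisons, and -0.07 to 0.04 after median-of-ratios scaling. Tek in LinNegSca1Neg differed from Whole by -0.32 as deposited (limma adjusted p = 0.289) and by -1.04 after median-of-ratios scaling (adjusted p = 0.001). Angpt1 in LinNegSca1Pos was higher than in Whole as deposited (0.43, adjusted p = 0.0364) and took the other sign after that scaling (-0.14). Its call was also lost without Whole replicate 2 or 3 or LinNegSca1Pos replicate 1 or 2, with adjusted p of 0.0651 to 0.175. Angpt1 in LinNeg, higher than in Whole by 0.86 (adjusted p = 1.3e-04), was not called after that scaling (0.28, adjusted p = 0.115). Vegfc (1.68 to 3.14) and Angpt2 (0.99 to 2.36) were higher than Whole in all 4 fractions, and Vegfb lower (-2.09 to -3.86).

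**Figure D4:**
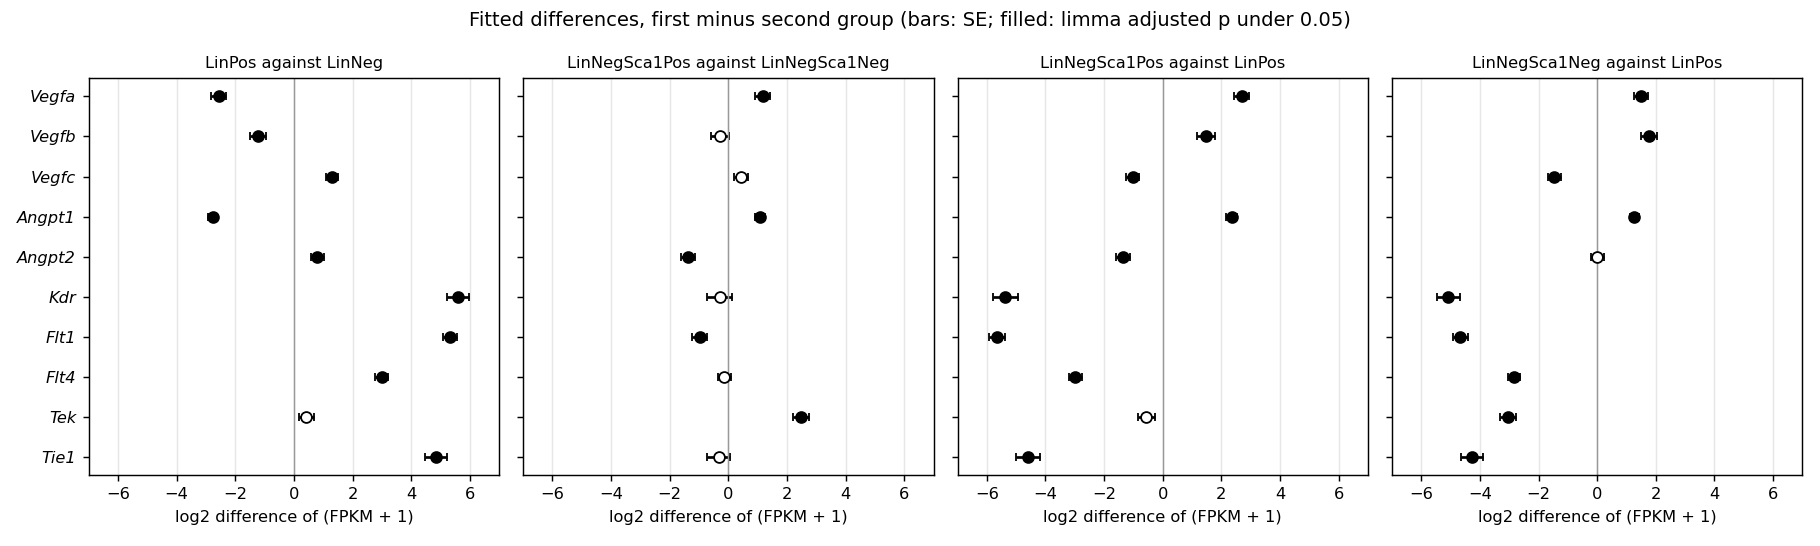
Log2 difference of FPKM + 1 for each member in the 4 comparisons among the sorted fractions, with bars of 1 SE and filled points where limma's adjusted p is under 0.05. Kdr, Flt1 and Tie1 differ by 4.84 to 5.60 between LinPos and LinNeg while Tek differs by 0.42, and Tek differs by 2.48 between LinNegSca1Pos and LinNegSca1Neg.

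Patterns most like each member were found by Pearson's r of log2(FPKM + 1) over the 19 libraries, a description in which the libraries fall into groups. The closest genes to Kdr were Arhgef15 (0.994), Slc28a2 (0.992) and Podxl (0.992), to Flt1 Ptprb (0.995), Podxl (0.994) and Cd300lg (0.992), and to Tie1 Aplnr (0.994), Gpihbp1 (0.990) and Podxl (0.990). Flt4 lay nearest Bcl6b (0.994), Slc1a1 (0.993) and Mall (0.993). Tek had other neighbours: Ablim1 (0.993), Slfn5 (0.983) and Enpp3 (0.968). Ablim1, an actin-binding protein, was 65.0 ± 24.4 FPKM in LinPos, 47.9 ± 8.35 in LinNeg, 47.3 ± 11.4 in LinNegSca1Pos and 8.06 ± 0.59 in LinNegSca1Neg, the order seen for Tek in these fractions.

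Among the ligands, Vegfa was nearest Tbx15 (0.969), Clip4 (0.958) and Hspb8 (0.941), and Vegfb nearest Smyd2 (0.983), Pacsin3 (0.977) and Rab11fip3 (0.976). Vegfc was nearest Serpinb9 (0.974), Pgm1 (0.967) and Swap70 (0.966). For Angpt1 they were Slc4a4 (0.967), Amy1 (0.965) and Cdkl2 (0.940), and for Angpt2 Taf2 (0.971), Slc39a10 (0.966) and Cers4 (0.964).

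The remaining VEGF ligands and co-receptors, 6 genes, were all called between LinPos and LinNeg, 2 higher and 4 lower (median -1.78). Over all tested genes 25.3% were higher and 25.8% lower in this comparison, with a median of 0.00, and 22.4% were higher and 32.1% lower in LinNegSca1Pos against LinNegSca1Neg, with a median of -0.16. The lists that follow are read against these shares. Figf (Vegfd), a ligand of Flt4, was 20.9, 26.2, 39.1 and 27.97 FPKM in LinNeg and 0.920 to 1.59 in LinPos, a difference of -3.77 (SE 0.19, limma adjusted p = 1.1e-11). Between the Sca1 fractions it was higher in LinNegSca1Pos by 3.04 (adjusted p = 1.8e-09), at 23.6 ± 6.26 against 1.96 ± 0.48 FPKM. Figf thus lay with Tek in LinNeg and LinNegSca1Pos but, unlike Tek, was low in LinPos.

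Pgf, placental growth factor and a ligand of Flt1, was 14.1 ± 3.10 FPKM in LinNeg and 2.05 ± 0.76 in LinPos (-2.32, limma adjusted p = 1.1e-07), and higher in LinNegSca1Pos than in LinNegSca1Neg by 1.11 (adjusted p = 0.00132). The neuropilin co-receptors were higher in LinPos, Nrp1 by 2.02 (173 ± 63.4 against 39.7 ± 2.82 FPKM, adjusted p = 1.3e-07) and Nrp2 by 2.31 (23.4 ± 5.72 against 3.84 ± 0.72 FPKM, adjusted p = 2.3e-07). Sca1 divided them in opposite directions, with Nrp1 higher by 1.04 (adjusted p = 8.1e-04) and Nrp2 different by -1.03 (adjusted p = 0.00329) in LinNegSca1Pos. Adamts3, a protease that helps to activate Vegfc, was lower in LinNegSca1Pos by -1.41 (adjusted p = 3.9e-08). In all, 3 of the 6 were higher and 2 lower in LinNegSca1Pos (median 0.60).

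**Figure D5:**
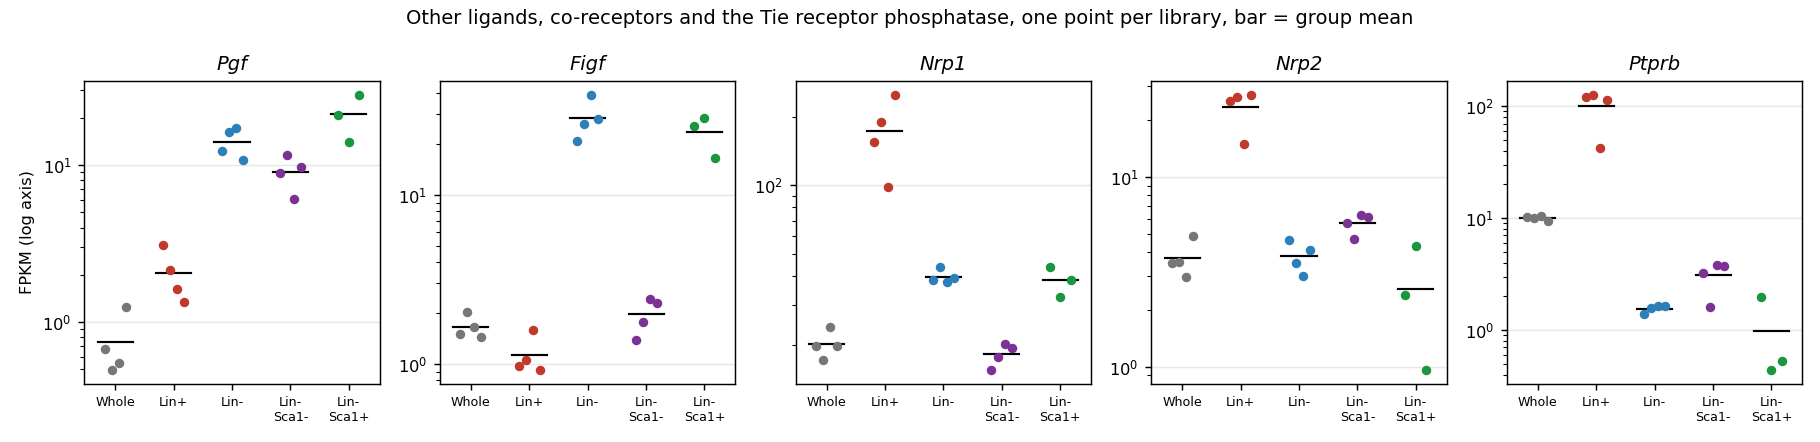
FPKM of Pgf, Figf, Nrp1, Nrp2 and Ptprb in each library (log axes that do not start at 0), with a bar at the group mean. Figf averages 28.6 FPKM in LinNeg and 1.13 in LinPos, and Ptprb 101 FPKM in LinPos and 1.55 in LinNeg.

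Of 8 partners and effectors of the Tie receptors, 2 were higher and 4 lower in LinPos than in LinNeg (median -0.17), against 25.3% and 25.8% of all genes. The share of higher genes was thus that of the background, and the share of lower genes was above it. Ptprb, the endothelial phosphatase VE-PTP that acts on Tek, was 121, 127, 42.0 and 115 FPKM in LinPos and 1.38 to 1.63 in LinNeg, a difference of 5.20 (SE 0.30, limma adjusted p = 4.7e-11). Tek therefore stood high in LinNeg where Ptprb, like Tie1, was low. Dok2, an adaptor that binds activated Tek, was higher in LinPos by 4.97 (adjusted p = 1.2e-13), and it is also known from blood cells. Svep1, a matrix protein that binds Tie1, was lower by -3.57 (adjusted p = 3.8e-09), at 1.17 ± 0.58 against 25.8 ± 11.9 FPKM.

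Between the Sca1 fractions, 2 of these 8 were higher and 3 lower in LinNegSca1Pos (median 0.00), near the 22.4% and 32.1% of all genes. Itga5, the fibronectin receptor subunit, was higher by 2.93 (limma adjusted p = 6.7e-05) and Svep1 by 1.45 (adjusted p = 6.2e-04), while Ptprb was lower by -1.09 (adjusted p = 0.00828).

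Of 10 effectors and endothelial targets of VEGF receptors, 9 were tested, and 6 were higher and 1 lower in LinPos than in LinNeg (median 0.99), against 25.3% and 25.8% of all genes. Dll4, a Notch ligand of tip cells, was higher by 4.54 (limma adjusted p = 2.8e-11), Nos3, endothelial nitric oxide synthase, by 3.28 (adjusted p = 1.8e-08), and Esm1, a tip cell proteoglycan, by 2.19 (adjusted p = 3.6e-07). In LinNegSca1Pos against LinNegSca1Neg 3 were higher and none was lower (median 0.31), against 22.4% and 32.1% of all genes. These were Rcan1, a calcineurin inhibitor (1.58, adjusted p = 2.9e-05), Shb, an adaptor of Kdr (1.43, adjusted p = 1.7e-07), and Esm1 (0.71, adjusted p = 0.03), of which Rcan1 and Shb are not restricted to endothelium.

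Of 12 endothelial transcription factors, 10 were higher in LinPos than in LinNeg and 1 lower (median 3.44), against 25.3% and 25.8% of all genes. Hhex was higher by 4.48 (limma adjusted p = 9.2e-13), Sox17 by 4.46 (adjusted p = 1.0e-09) and the ETS factor Fli1 by 4.44 (adjusted p = 1.4e-11). In LinNegSca1Pos 6 of the 12 were lower than in LinNegSca1Neg and 1 was higher (median -0.51). With 54.5% of all genes called there, 32.1% lower and 22.4% higher (median -0.16), the number called in either direction was near the background. By direction, the list held a larger share of lower genes and a smaller share of higher ones. Klf4 was the higher one, by 1.36 (adjusted p = 9.5e-06), at 248 ± 22.4 against 95.7 ± 2.89 FPKM. Klf4 was also the 1 factor lower in LinPos than in LinNeg (-0.83, adjusted p = 5.5e-04). It was above Whole in all 4 fractions (3.96 to 5.47), so its level was not particular to LinPos. The ETS factors Ets2 (-1.33, adjusted p = 7.9e-06) and Erg (-1.28, adjusted p = 8.4e-04) were lower in LinNegSca1Pos than in LinNegSca1Neg.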

How the data were processed

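Per the labels' protocols, cells were sorted by FACS and stranded mRNA libraries were made. The deposited table gives each gene's FPKM. The submitters' processing notes name the tools bcl2fastq, TopHat2, Bowtie2 and Cufflinks and the genome mm10, while their versions, their roles and the annotation were not given in the sources used. Another 4 columns match no sample and were left unused. Of 23846 genes, 311 carry status words in all libraries and 14 in part of them, and these were dropped.

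The authors' FPKM are not counts, so limma 3.58.1 in R 4.3.3 was run on log2(FPKM + 1), two-sided, with the variance trend and 1 model for the 5 groups (14 residual degrees of freedom). Kept were the 14043 genes that reached 1 FPKM in 3 or more libraries, and Benjamini-Hochberg adjustment covered all of them in each of 8 comparisons (threshold 0.05). This step was tested on simulated data. Ratios used FPKM + 0.1 and exact permutation tests. FPKM hide the number of fragments, so no counting intervals are given. Sample titles gave the groups and replicate numbers. The members and gene lists were chosen with earlier results of these data known. Named were all members, Pgf, Figf, Nrp1, Nrp2 and Ptprb, up to 3 called genes with the largest difference per pathway list in LinPos against LinNeg and in LinNegSca1Pos against LinNegSca1Neg, and the 3 genes most like each member. Ccl21a and Adgre1 were not found under these symbols. Promoter sequences are from RefSeq for GRCm38.p6.

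Whether replicate numbers pair the libraries is not given by the labels. Across genes, deviations from group means of libraries with the same number correlated at 0.441 to 0.704 between LinPos and LinNeg. Between LinPos and LinNegSca1Neg they correlated at 0.36 to 0.675. Libraries with different numbers were not compared, so pairing cannot be told apart from a split of replicates 1 and 2 from 3 and 4. The main fit has no block. The alternatives tried were a pseudocount of 0.1 or 5, a filter at 5 FPKM or none, quantile normalization, median-of-ratios scaling, sample weights, no trend, only the compared groups in the fit and the replicate block. Further ones were leaving out each library, and using replicates 1 and 2 (set A) or 3 and 4 (set B) of LinPos, LinNeg and LinNegSca1Neg alone or set B as a term.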

Additional observations from a re-analysis of the deposited data

Results flagged for a closer look

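In 4 of 40 groups of 4 libraries examined, a single library lay so far from the others that its gap to the nearest, divided by the group's range, exceeded Dixon's critical value of 0.829. Chance flags about 1 group in 20. Vegfb in LinPos was 6.84 FPKM in replicate 4 and at most 4.03 in the others, and replicate 4 also had the highest platelet and megakaryocyte marker sum of its group, 2597 FPKM. That sum was carried by the 2 of 6 markers that reached 1 FPKM there. Replicate 4 likewise had the highest sums of 7 macrophage markers (1444 FPKM) and 5 lymphatic endothelial markers (212.4 FPKM), and the lowest leukocyte sum (832.1 FPKM). Of those 5 lymphatic markers, 2 were higher and 3 lower in LinPos than in LinNeg. The part of any of these cells in the Vegfb value was not tested. Flt4 in LinPos was 3.97 FPKM in replicate 3, against 9.98 or more in the others, the library whose endothelial marker sum was also the lowest. In LinNegSca1Neg, replicate 2 was the low library for both Flt1 (1.68 FPKM) and Tie1 (1.28 FPKM).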

How the results depend on the processing

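Of 80 member results, 71 passed the threshold, and 65 of these passed in the same direction under every alternative run. Of 1730 alternative values, 15 changed sign, 14 gained a call and 20 lost it with the sign kept. The results that changed sign were not called at first, except that of Angpt1 given last. Between the Sca1 fractions, Vegfb became 0.23 with set A and 0.045 with a term for set B. Kdr became 0.034 after quantile normalization and 0.072 with sample weights, and ranged from -0.75 to 0.13 as single libraries were left out. Flt4 became 0.18 and Tie1 0.054 after quantile normalization. Angpt2 in LinNegSca1Neg against LinPos became -0.15 with median-of-ratios scaling and -0.30 with sample weights, and ranged from -0.13 to 0.15 without single libraries. Angpt1 in LinNegSca1Pos against Whole became -0.14 with that scaling and -0.035 after quantile normalization. It lost its call in both (limma adjusted p = 0.46 and 0.856). The cause was not tested.

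The ratio of Tek to Tie1 in LinNegSca1Neg against LinPos was 2.19 in set A and 1.05 in set B, without a test, and ranged from 1.45 to 1.77 without single libraries. The ratio of Vegfa to Vegfb in LinPos against LinNeg passed with a ratio pseudocount of 1 (-1.35, exact permutation p = 0.0286). With the replicate block, 9 of 10 members were called for LinPos against LinNeg and 9 for LinNegSca1Neg against LinPos, as without it. Paired exact permutation tests of the ratios cannot go below p = 0.125 with 4 pairs, so they could not pass whatever the values. That p came out for Tek to Tie1 (-5.40 in LinPos against LinNeg, 1.62 in LinNegSca1Neg against LinPos). It also came out for Angpt1 to Angpt2 (-4.64 and 1.98). The calls of these ratios rest on the unpaired tests alone. In LinNegSca1Pos against LinPos, deviations of libraries with the same number correlated at only 0.014 to 0.068. There the block added the call of Tek (-0.63, limma adjusted p = 0.0469). The unknown depth limits the values under 1 FPKM, those of Flt4 in the lineage-negative groups above all.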

Other observations

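The LinPos libraries differed in endothelial content, so each receptor was also set against the sum of the 13 endothelial markers, which are not members. Per 100 FPKM of these markers, Kdr was 9.78 and 11.1 FPKM in replicates 1 and 2 and 5.83 and 6.195 in replicates 3 and 4. Flt1 was 6.22, 5.90, 5.70 and 5.46, and Flt4 0.535, 0.529, 0.522 and 0.636. Tek was 4.74, 5.05, 4.13 and 3.72, and Tie1 5.01, 4.29, 2.64 and 2.77. On this scale replicate 3 no longer stood apart for Flt1 and Flt4, whereas Kdr, Tek and Tie1 were lower in replicates 3 and 4 than in 1 and 2. The labels do not say what sets these replicates apart.

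Genes of the oxygen response can regulate Vegfa. Of 7 tested genes of oxygen sensing, 1 was higher and 1 lower in LinPos than in LinNeg, and 1 was higher and 4 lower in LinNegSca1Pos than in LinNegSca1Neg (median -0.48), where 51.1% and 54.5% of all genes were called. Epas1, which encodes HIF-2 alpha, was 172 ± 66.3 FPKM in LinPos and 31.1 ± 16.1 in LinNeg (2.48, limma adjusted p = 8.6e-07). It was 63.6 ± 13.5 FPKM in LinNegSca1Neg and 5.20 ± 1.83 in LinNegSca1Pos (-3.40, adjusted p = 7.7e-08). In both comparisons its order was the reverse of that of Vegfa. Whether Epas1 acts on Vegfa in these cells was not tested. The prolyl hydroxylase gene Egln3 was lower in LinPos (-0.68, adjusted p = 0.00361) and in LinNegSca1Pos (-1.16, adjusted p = 6.8e-05), and Egln2 was higher in LinNegSca1Pos (1.52, adjusted p = 2.8e-04).

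Of 7 tested hypoxia targets, 2 were higher and 1 lower in LinPos than in LinNeg (median 0.06), and 1 was higher and 3 lower in LinNegSca1Pos (median -1.04), beside the same shares of all genes. Against Whole, 4 of the 7 were lower in each fraction (medians -2.57 to -1.36) and 2 or 3 were higher. The lower ones were Ldha, Pgk1, Bnip3 and Pdk1 each time, and Vegfa was lower there too. Of all genes, 18.2% to 22.9% were lower in these comparisons and 44.0% to 50.0% higher. Whole also had the highest sums of myofibre genes, 73740 to 92930 FPKM. The part of myofibre RNA in these differences was not tested, nor was a shared response of these genes and Vegfa to oxygen. Adm, adrenomedullin, a vasodilator peptide, was lower in LinPos (-2.01, limma adjusted p = 6.3e-07) and higher in LinNegSca1Pos (2.68, adjusted p = 8.6e-08), at 56.1 ± 7.52 FPKM there, the directions of Vegfa. Against Whole it went the other way from Vegfa, higher in all 4 fractions (1.38 to 4.06, adjusted p at most 4.2e-05). Bnip3 (-1.74, adjusted p = 4.3e-04) and Ankrd37 (-1.31, adjusted p = 0.00117) were lower in LinNegSca1Pos. In LinPos, Ankrd37 (0.67, adjusted p = 0.0495) and Slc2a1, a glucose transporter (0.56, adjusted p = 0.0121), were higher.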
